A study of Paxillus involutus and Laccaria bicolor with 24 samples.

Results

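The transcriptome of *Laccaria bicolor* mycelium under prolonged glucose depletion was compared with that of the same fungus during active growth. All gene models with a mean of at least 11 reads over the 12 *L. bicolor* libraries were included, which left 14352 of 23130 gene models, and the whole series holds 41098 gene models of 2 fungi. Mycelium of prolonged glucose depletion was sampled on day 30 (time point t4) and actively growing mycelium on day 2 (time point t1), with 3 libraries from biological replicates each.

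Mycelium of *L. bicolor* (Maire) P.D. Orton, strain S238N, was grown on glass beads in petri dishes in liquid MMN medium, then kept for a day in that medium without nitrogen. After washing, both groups received a hot-water extract of soil organic matter (SOM) from a Norway spruce forest, to which glucose had been added. The cultures therefore shared the strain, the nitrogen-deprived pre-culture and the extract. They differed in days on the extract, in culture age and in the nutrients left, and these cannot be told apart. Between t1 and t4 lie t2 (day 13, ammonium depletion) and t3 (day 23, glucose depletion), each with 3 libraries. The names prolonged glucose depletion for t4 and active growth for t1 are those of the authors.

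*L. bicolor* is an ectomycorrhizal basidiomycete, a fungus that lives on tree roots and receives sugars from its host. In soil it also meets nitrogen bound in organic matter. In filamentous fungi, a readily used sugar represses genes for the use of other carbon sources, and mycelium without a carbon source is known to recycle its own cell material. The files give gene model names without protein names. The reference table used here is of *P. involutus*, the other fungus of the series, and so could not give functions for these names. No gene function is therefore stated below. Only 2 rising and 2 falling gene models are named. For the same reason, the label mycelium could not be checked against marker genes.

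The 6 libraries were similar in depth. Those of t4 held 10598530 to 13187194 counted reads, and those of t1 held 10797314 to 12169575. Between 99.876 and 99.879% of the reads of a t4 library fell on tested gene models, and between 99.913 and 99.915% of those of a t1 library. Libraries of t4 had reads on a mean of 17267 ± 96.5 gene models, against 16754 ± 56.2 in t1 (SD, n = 3 each). With 3 libraries against 3 the exact permutation test cannot go below p = 0.1, and this difference of 513.7 gene models was at that limit. Libraries of 1 group differed by more than counting noise, since the chi-square per degree of freedom between pairs of replicates was 1.77 to 3.64, and each was counted as a separate sample.

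Most of the transcriptome differed between the 2 groups. Of the 14352 tested gene models, 4437 (30.9%) were higher at t4 and 4366 (30.4%) were lower at t4, so that 8803 (61.3%) changed in all. These calls are from edgeR's quasi-likelihood test at a false discovery rate (FDR) of 1% after Benjamini-Hochberg adjustment over all tested gene models. Rises and falls were nearly equal in number, and the median log2 fold change of t4 over t1 was 0.04. The scaling of the libraries sets the centre of the fold changes, so this balance is not a result of its own. With the authors' normalization factors 3820 gene models rose and 4072 fell. With the Wald test of DESeq2 these were 3865 and 4280. The median change of the gene models that rose was 0.79 on the log2 scale, and that of the gene models that fell was -0.70. Of the changes called, 2821 rises and 3039 falls were smaller than 2-fold. Gene models that were not called had a median absolute log2 fold change of 0.17, with 95% of them below 0.61.

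The groups were separated at the level of single libraries. Levels are given in CPM, that is, read counts relative to the library total, after TMM scaling of the totals. All 3 t4 libraries lay above all 3 t1 libraries for 5428 gene models (37.8% of those tested), and all lay below for 5024 (35%). Of the 4437 gene models called higher, 4417 had libraries that did not overlap, and of the 4366 called lower, 4339. A further 1696 gene models had non-overlapping libraries and were not called.

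Large changes were more often rises than falls. At least 2-fold differences were found for 1616 gene models that rose (11.3%) and 1327 that fell (9.25%). At a minimum of 4-fold these were 387 and 247 gene models, at 8-fold 143 and 67, at 16-fold 58 and 16, and at 32-fold 23 and 6. At 64-fold, 9 rose and 2 fell. With the authors' factors, rises of at least 8-fold again outnumbered falls, at 161 and 88. The excess of rises was small when the 2-fold change itself was tested (808 rises and 784 falls, edgeR's glmTreat, FDR 1%) and when the deposited rlog values had to differ by at least 1 (408 and 401). Among the 20 largest rises the log2 fold change ran from 8.82 to 5.07, and 10 of them had a mean under 1 CPM at t1. The 20 largest falls ran from -6.96 to -3.89, and 4 of them had a mean under 1 CPM at t4. Highly abundant gene models were also among these, with 8 of the 20 rises at 100 CPM or more at t4 and 11 of the 20 falls at 100 CPM or more at t1.

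The 4 named gene models were followed through every library. The largest rise was that of Lacbi1.fgenesh3_pg.C_scaffold_9000112. It had 604, 541 and 616 reads in the t4 libraries, against 1, 0 and 2 reads in the t1 libraries. In CPM this was 45.6, 48.2 and 44.0 at t4, against 0.093, 0 and 0.19 at t1, so the groups lay far apart and the gene model was nearly silent on day 2. Its log2 fold change was 8.82 (SE 0.35, adjusted p = 7.7e-16, edgeR). It was 7.13 with the authors' factors, and the deposited rlog values differed by 1.62. The summed reads gave a ratio of 505 (exact 95% interval for counting error 172 to 2451), and this width comes from the 3 reads at t1. Its level was higher at the intermediate time point t3 (86.6 ± 5.89 CPM) than at t4 (45.9 ± 2.09 CPM), and was 17.4 ± 5.83 CPM at t2 (SD, n = 3 each).

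The most abundant gene model with at least a 2-fold rise was estExt_fgenesh1_kg.C_LG_1_t30236, at rank 9 by level at t4 and rank 17 at t1. It had 8760, 8727 and 8592 CPM in the t4 libraries, against 2815, 2754 and 2752 CPM in the t1 libraries. The replicates of each group were within a few percent of each other. The log2 fold change was 1.65 (SE 0.06, adjusted p = 1.2e-16, edgeR). Its means were 3828 ± 272 CPM at t2 and 8447 ± 371 CPM at t3 (SD, n = 3 each), so that the level at t3 was already close to that at t4. This rise was seen with scaling by library only. With the authors' factors for transcript length, G/C content and depth in the same model, the log2 fold change was -0.52 (adjusted p = 0.019, edgeR), and the deposited rlog values differed by -0.32. The factors of this gene model were 9.07, 4.93 and 9.27 in the t4 libraries, against 1.41, 1.54 and 1.27 in the t1 libraries.

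The largest fall was that of Lacbi1.e_gwh1.75.36.1, with 1, 2 and 3 reads in the t4 libraries, against 208, 241 and 237 reads in the t1 libraries. In CPM it had 0.076, 0.18 and 0.21 at t4, against 19.3, 20.3 and 22.7 at t1. This was the lowest level of all tested gene models at t4, while at t1 the gene model stood at rank 7000, near the middle. The log2 fold change was -6.96 (SE 0.28, adjusted p = 9.7e-16, edgeR). It was -6.06 with the authors' factors, and the deposited rlog values differed by -2.35. In CPM, most of the difference was already present at t2, where the mean was 1.51 ± 0.53 CPM, and t3 had 0.23 ± 0.20 CPM (SD, n = 3 each).

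The most abundant gene model with at least a 2-fold fall was estExt_Genewise1Plus.C_LG_1_t90073, at rank 206 by level at t4 and rank 10 at t1. It had 402, 430 and 387 CPM in the t4 libraries, against 4152, 4244 and 4243 CPM in the t1 libraries. The log2 fold change was -3.37 (SE 0.09, adjusted p = 3.9e-18, edgeR), and it was -1.72 with the authors' factors, while the deposited rlog values differed by -1.02. Its level at t2 was 3054 ± 358 CPM and at t3 808 ± 118 CPM (SD, n = 3 each). The step between t2 and t3 was thus larger than that before it or after it, unlike in the gene model with the largest fall.

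**Figure D1:**
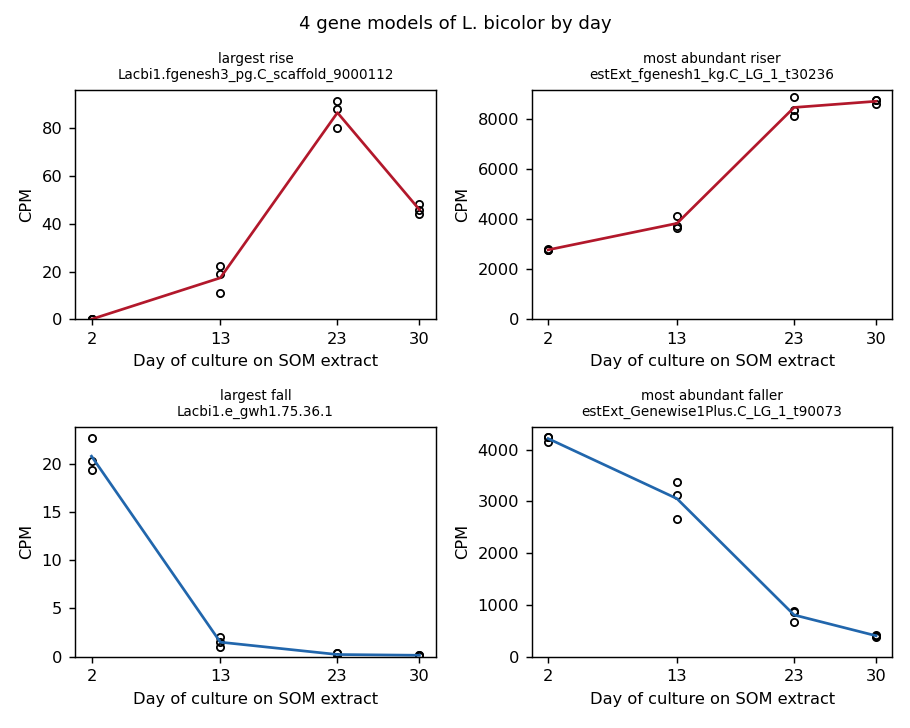
CPM of the 4 named gene models against the day of culture on the extract, with open circles for single libraries (3 per day) and lines through the means. The largest rise peaked on day 23 at 86.6 CPM, and the most abundant faller had 406 CPM on day 30 against 4213 CPM on day 2.

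The direction of change differed with the level of expression. Gene models were put into 5 equal classes by their mean CPM over the 12 libraries. In the class of lowest level (median 2.16 CPM), 712 of 2870 gene models (24.8%) rose and 247 (8.61%) fell. In the class of highest level (median 121 CPM), 823 of 2871 (28.7%) rose and 1532 (53.4%) fell. The share that fell was larger in each higher class, at 17.3%, 31.1% and 41.8% in the classes between these. The share that rose was 35.4%, 35.1% and 30.6% in the same classes. In the middle class, the rises (1007) outnumbered the falls (892), and this order was turned with the authors' factors (860 and 887). The median log2 fold change was 0.28 in the lowest class, then 0.20, 0.04 and -0.09, and -0.25 in the highest class.

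The classes also differed in precision. The median standard error of the log2 fold change was 0.25 in the lowest class and 0.06 in the highest, where 82.0% of the gene models were called, against 33.4% in the lowest. The part of this in the calls was not tested. The median log2 fold change was taken over all gene models of a class, called or not, and was lower in each higher class. When the classes were made from the 6 libraries of t2 and t3, which do not enter the comparison, the share that fell was 9.27% in the lowest class and 51.9% in the highest, and the medians were 0.27 and -0.22. With the authors' factors the medians were 0.20 in the lowest class and -0.21 in the highest. In the highest class 542 gene models fell at least 2-fold and 252 rose at least 2-fold. In the lowest class 147 fell and 477 rose by that much.

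**Figure D2:**
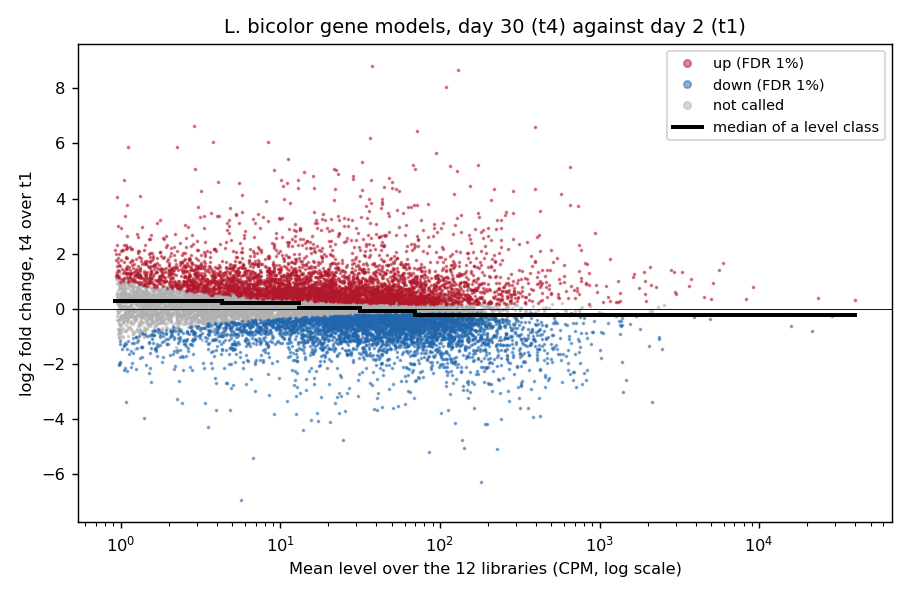
Log2 fold change of t4 over t1 against the mean level over the 12 libraries (CPM, log scale) for the 14352 tested gene models, coloured by call at FDR 1%, with black lines at the median of each level class. The black lines step down from 0.28 in the lowest class to -0.25 in the highest.

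**Figure D3:**
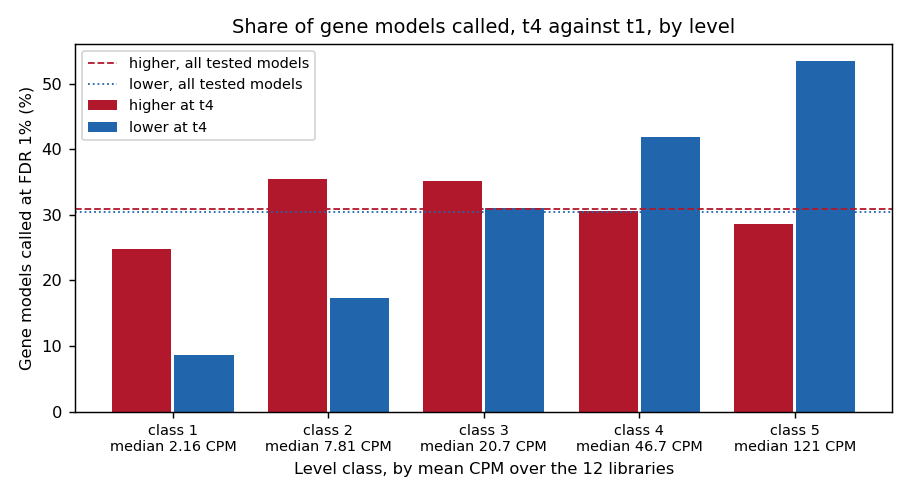
Percentage of gene models called higher or lower at t4 in each of 5 level classes, with dashed and dotted lines at the shares over all tested gene models (30.9% and 30.4%). The share of gene models that fell was 8.61% in class 1 and 53.4% in class 5.

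A large part of the reads lay on different gene models in the 2 groups. The share of reads that would have to be placed on other gene models to make 2 libraries equal was 23.6 to 24.9% over the 9 pairs of a t4 and a t1 library. It was 2.34 to 3.34% between t4 libraries and 2.73 to 3.31% between t1 libraries. The gene models that rose held 47.8 ± 0.41% of the reads at t4, against 25.3 ± 0.18% at t1, and those that fell held 36.0 ± 0.37% at t4, against 60.0 ± 0.26% at t1 (SD, n = 3 each). These sets were chosen by this comparison, so that these shares are a description only. In the libraries that did not choose them, the gene models that rose held 33.1 ± 1.23% of the reads at t2 and 45.0 ± 0.88% at t3. The gene models that fell held 51.4 ± 1.20% at t2 and 39.5 ± 0.88% at t3 (SD, n = 3 each).

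The lists of the most abundant gene models overlapped in part. Of the 100 most abundant gene models at t4, 58 were also among the 100 most abundant at t1. Of the 100 at t4, 68 were called higher, 24 lower and 8 were not called. Of the 100 at t1, 31 were called higher, 65 lower and 4 were not called. Ranking by level at t4 favours rises and ranking by level at t1 favours falls, so these counts are a description only. Over all tested gene models 30.9% rose and 30.4% fell. In the highest level class over the 12 libraries the shares were 28.7% and 53.4%. The 5 most abundant gene models at t4 had between 45882 and 14312 CPM, all were called, and their changes were smaller than 2-fold, with log2 fold changes between -0.82 and 0.38.

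Highly expressed and upregulated gene models were defined as those at least 2-fold higher at FDR 1% and among the top 20% by level at t4, which meant at least 65.1 CPM. There were 376 of these, with a median log2 fold change of 1.60, and 274 of them were not among the top 20% at t1. They held 13.8 ± 0.19% of the reads at t4, against 3.92 ± 0.03% at t1 (SD, n = 3 each), with 7.28% at t2 and 12.1% at t3. Highly expressed and downregulated gene models, chosen in the same way from the top 20% at t1 (at least 73.1 CPM), numbered 689. Their median log2 fold change was -1.45, and 356 of them were no longer among the top 20% at t4. They held 7.53 ± 0.14% of the reads at t4, against 21.9 ± 0.14% at t1 (SD, n = 3 each), with 16.4% at t2 and 9.09% at t3.

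The concentration of the reads on few gene models differed by small amounts. The 10 most abundant gene models held 17.7 ± 0.16% of the reads at t4, against 16.3 ± 0.02% at t1 (SD, n = 3 each). The difference of 1.42 percentage points had p = 0.1 in a two-sided exact permutation test, the smallest that the design allows, and was 0.50 percentage points without the most abundant gene model. The number of gene models that together held 50% of the reads was 545, 556 and 547 at t4, against 558, 565 and 553 at t1. These ranges overlapped (difference -9.33, exact permutation p = 0.2), and without the most abundant gene model the direction was reversed, with 31.3 more gene models at t4. To reach 90% of the reads, 5608 to 5620 gene models were needed at t4, against 5135 to 5162 at t1. This difference of 468.7 gene models had an exact permutation p = 0.1.

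No tested gene model was without a read in all 3 t1 libraries or in all 3 t4 libraries, so none could count as switched on or off between the groups. There were 7 tested gene models with at most 3 reads over the t1 libraries, and 0 with at most 3 reads over the t4 libraries. Without the count minimum, edgeR called 34 gene models that had no read at t1 as higher at t4, and 4 that had no read at t4 as lower. At an unadjusted p under 0.05 these were 102 and 17 gene models. DESeq2 without the count minimum, tried after the data were seen, called 17 and 4. All 34 were weakly expressed, with at most 36 reads summed over the t4 libraries.

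The changes between t1 and t4 were placed in time with the libraries of t2 and t3. For the gene models with at least a 2-fold rise, the median share of the t4 minus t1 difference reached on the log2 scale was 40.4% at t2 and 84.4% at t3. For those with at least a 2-fold fall it was 34.0% at t2 and 80.4% at t3. These shares use the libraries of t1 and t4 that chose the gene models. The step between t2 and t3 was the largest of the 3 steps for 798 of the 1616 gene models that rose at least 2-fold, and the step before it for 728. Only 90 had their largest step between t3 and t4. For the falls these numbers were 732, 493 and 102 of 1327.

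Some gene models passed their t4 level earlier. Of those with at least a 2-fold rise, 303 (18.8%) had a higher mean at t3 than at t4, and 65 at t2. Of those with at least a 2-fold fall, 133 (10.0%) had a lower mean at t3 than at t4, and 32 at t2. Movement the other way also occurred at ammonium depletion. At t2, 172 of the gene models that fell at least 2-fold (13.0%) were above their t1 mean, and 107 of those that rose at least 2-fold (6.62%) were below it.

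The step from t2 to t3 rests on 6 libraries that are not in the comparison of t4 with t1, although all libraries share the estimate of spread. Over all tested gene models, 2674 (18.6%) were higher at t3 than at t2 and 2898 (20.2%) were lower (edgeR, FDR 1%). Of the 1616 gene models that rose at least 2-fold at t4, 1090 (67.5%) were also higher at t3 than at t2, and 12 were lower. Of the 1327 that fell at least 2-fold, 1066 (80.3%) were lower at t3 than at t2, and 6 were higher. Of the 20 largest rises 19 were called higher in this step, and all 20 of the largest falls were called lower.

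The gene model names hold words such as fgenesh, Genewise and Genemark, which are the names of gene prediction programs, and the direction of change differed between groups of names. GeneWise builds a gene model from a similar protein, whereas fgenesh predicts genes from the DNA sequence and can use other evidence. In the classes by the first letters of the name, the median log2 fold change was 0.10 for 2545 gene models of e_gw, 0.10 for 3039 of fgenesh, 0.10 for 1042 of gm and 0.06 for 4395 of Lacbi. It was -0.09 for 1592 gene models of estExt_fgenesh, -0.09 for 1214 of estExt_Genewise and -0.17 for 245 of estExt_Genemark, while the 280 of gw had -0.01. In the 3 estExt classes 40.0 to 45.3% of the gene models fell, against 30.4% of all tested gene models. These classes also had a higher median level, at 40.2 to 49.6 CPM, against 20.7 CPM over all tested gene models.

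A finer division of the names was made after the values had been seen and is a description only. The largest excess of falls was found for names that begin with Lacbi1 and carry Genewise or GeneWisePlus with the word human or worm. The files do not say what these words stand for. Of 349 such gene models, 217 (62.2%) fell and 67 (19.2%) rose, with a median log2 fold change of -0.42, against 0.05 over the 14003 other tested gene models. Their median level was 93.7 CPM, against 19.9 CPM in the others. Within the highest level class 151 of 217 such gene models (69.6%) fell, against 52.0% of the other gene models of that class, and the medians were -0.56 and -0.22. In the class below it 43 of 73 (58.9%) fell, against 41.3% of the others. The part of the level in the remaining difference was not tested.

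Names with Lacbi1 and fgenesh_pg, but without estExt, stood at the other end by median. Of 913 such gene models, 325 (35.6%) rose and 166 (18.2%) fell, with a median log2 fold change of 0.25. Over all tested gene models 30.9% rose and 30.4% fell. Their median level was 7.39 CPM. In the highest level class 18 of 42 (42.9%) rose, against 28.5% of the others, and 19 (45.2%) fell, against 53.5%. The median within each of the 5 level classes was between 0.02 and 0.34, and each was above that of the other gene models in its class. Names with Lacbi1 and estExt_fgenesh_pg were kept apart. Of 359 such gene models, 146 (40.7%) rose and 112 (31.2%) fell, with a median of 0.13.

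**Figure D4:**
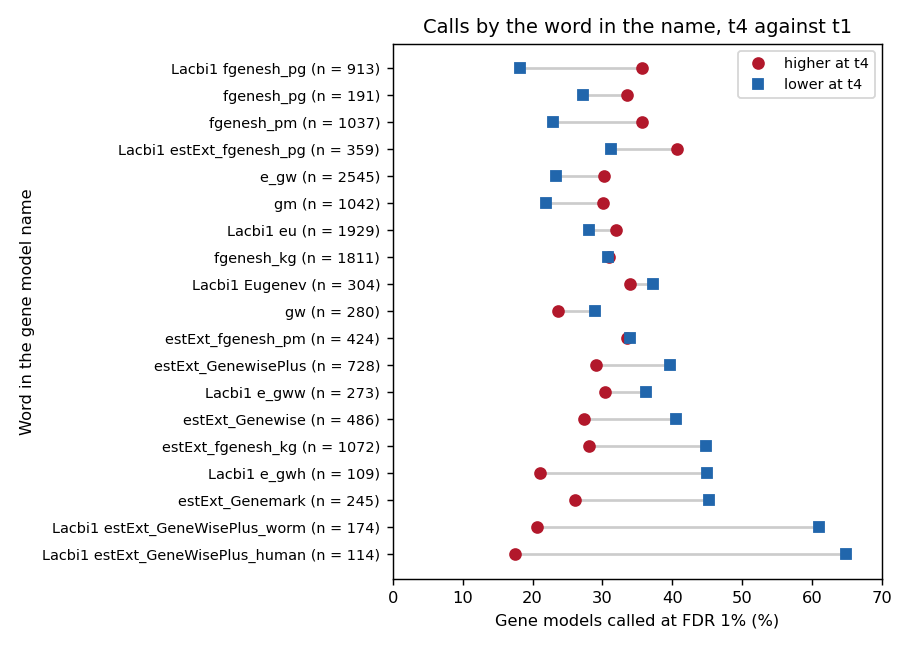
Percentage of gene models called higher (circles) or lower (squares) at t4 for each word in the gene model name with at least 100 tested gene models, ordered by median log2 fold change. Names with GeneWisePlus and human or worm lie at the bottom, with 64.9% and 60.9% of their gene models lower at t4.

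A small group with phl and a number at the end of the name was nearly all higher at t4. These names were noticed among the large changes, so the values are a description, and no source used here says what phl stands for. The series has 26 such *L. bicolor* gene models, of which 15 passed the count minimum. Of these 15, 13 rose, 12 of them at least 2-fold, and 0 fell, while 30.9% of all tested gene models rose. The count minimum includes the t4 libraries, so a weak member could pass it through its t4 reads. A member counted as a rise had 64 reads at t4, 51 at t3, 16 at t2 and 3 at t1, and passed in this way. Another member counted as a rise, with 70 reads at t4, 62 at t3, 8 at t2 and 12 at t1, did so too. Their median log2 fold change was 2.87, against 0.04 over all tested gene models, and it was 1.97 with the authors' factors, with 12 called higher.

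The group was mostly low, and its summed rise was seen in every t4 library. The median level of the 15 tested members over the 12 libraries was 4.80 CPM, against 20.7 CPM over all tested gene models. The highest level of a member was 39.6 CPM. The reads of all 26 summed to 200, 223 and 207 CPM in the t4 libraries, against 37.0, 34.4 and 31.2 CPM in the t1 libraries. The sum was 94.4 ± 9.71 CPM at t2 and 254 ± 7.69 CPM at t3 (SD, n = 3 each), so that it was highest at t3. The strongest change in the group was in a member with 101, 86 and 86 reads in the t4 libraries, against 0, 0 and 2 reads in the t1 libraries. Its summed reads gave a ratio of 117 (exact 95% interval for counting error 32.2 to 975). The most abundant member had 614, 642 and 749 reads at t4, against 80, 60 and 63 at t1, and its log2 fold change was 3.09 (SE 0.13, adjusted p = 3.7e-15, edgeR). A member at 19, 17 and 16 reads at t4, against 20, 15 and 9 at t1, did not pass the test (log2 fold change 0.03, SE 0.27), and the other member that did not pass had 0.69 (SE 0.29).

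The members differed in time course. In the step from t2 to t3, 12 of the 15 rose and 0 fell, against 18.6% of all tested gene models that rose in this step. The member with the strongest change had 0.03 CPM at t2 and 4.22 CPM at t3. Another had 17.8 CPM at t2 and 20.9 CPM at t3, with 1.68 CPM at t1, and so was already high at t2. Of the 11 members under the count minimum, 4 had all t4 libraries above all t1 libraries, and 1 had no read in any library. The alignment allowed at most 1 transcriptome hit per read, so reads of near-identical copies, if the group has any, may be missing from the counts.

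**Figure D5:**
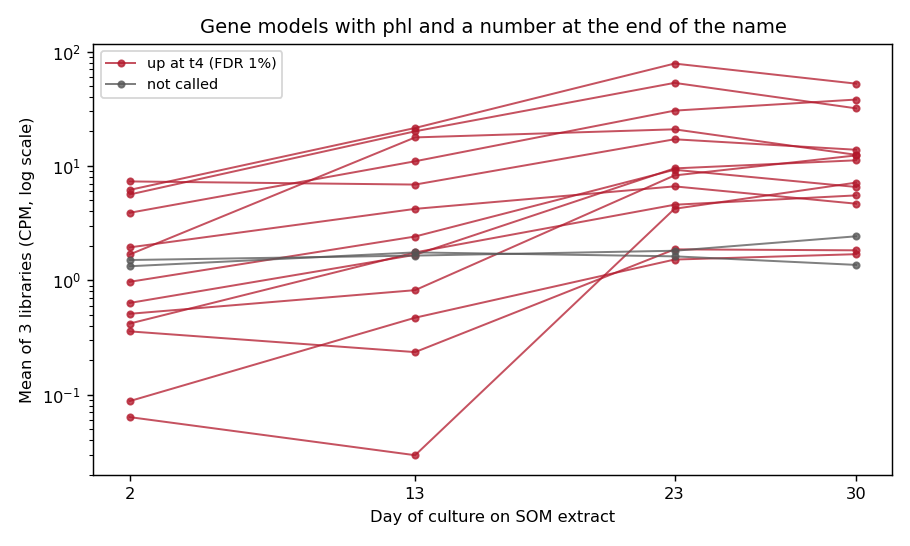
Mean CPM (log scale, 3 libraries) of the 15 tested gene models with phl and a number at the end of the name, against the day of culture on the extract. The 13 drawn in red were called higher on day 30, and the 2 in grey, at 1.36 and 2.43 CPM on day 30, were not called.

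The same comparison was made in *P. involutus*, the other fungus of the series, with its t4 (day 13) against its t1 (day 2). There 3872 of 12032 tested gene models (32.2%) were higher at t4 and 3672 (30.5%) were lower (edgeR, FDR 1%). Rises of at least 8-fold were found for 143 gene models in *L. bicolor* and 54 in *P. involutus*, and falls of that size for 67 and 37. The difference between the species in these counts was not tested. In *P. involutus* 1073 ± 3.51 gene models held 50% of the reads at t4, against 732 ± 7.51 at t1 (SD, n = 3 each). The t4 minus t1 difference was -9.33 gene models in *L. bicolor* and 340.3 in *P. involutus*. The difference between the species was -349.7 (exact permutation within species, 400 relabellings, p = 0.01, adjusted p = 0.015 over 3 measures). These relabellings assume no change with time in either fungus, so a change in 1 fungus alone can give a small p. Whether the 2 fungi changed by equal amounts was therefore not tested. The number that held 90% of the reads was on average 468.7 larger at t4 in *L. bicolor* and 534 larger at t4 in *P. involutus*. The same exact permutation gave adjusted p = 0.59 for the difference, but its spread includes the changes with time in both fungi. This p-value therefore does not show that the 2 fungi changed alike.

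The calls were tried under other settings. With the authors' factors, 7047 of the 8803 calls (80.1%) kept their direction and call, 1723 were lost and 33 were called in the opposite direction. In the t4 libraries the median SD of log2 values over replicates was 0.098 with TMM scaling and 0.10 with the authors' factors. In the t1 libraries it was 0.10 and 0.11. Leaving out 1 of the 6 libraries kept between 91.4 and 93.8% of the calls.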

How the data were processed

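RNA from mycelium was sequenced as single reads, and the authors removed ribosomal reads, aligned the rest with TopHat2 (version 2.0.13) and used HTSeq (version 0.6.1) to count reads by strand over coding sequence. The deposited counts are raw whole numbers. The authors also deposited factors per gene model and library (a score without a unit, used here as offsets in an alternative fit) that correct for depth, transcript length and G/C content, and rlog values on a log2 scale, which shrink differences of low counts. Here, counts with a mean of at least 11 over 12 libraries were scaled with TMM and tested with edgeR (version 4.0.16) in a fit of all 12 *L. bicolor* libraries. SEs were derived from the F statistic. Per-library values were tested by exact two-sided permutation. The 4 named gene models are the largest rise and fall and the most abundant gene models with at least a 2-fold rise or fall, all with non-overlapping libraries. The members and lists were chosen with earlier results of these data known. DESeq2 (version 1.42.0), its size factors, the authors' factors, no filter, a replicate block, fewer libraries and other thresholds were alternatives. Counts were also simulated for t4 against t1 over 14352 gene models, 14152 of them unchanged. There, 36 of 50 changes of 1.5-fold, 43 of 50 of 2-fold, 48 of 50 of 4-fold and 50 of 50 of 8-fold were recovered. Of the unchanged gene models, 5 were called. A much smaller part was changed there than was called in the data, so recovery and false calls in the data may differ. Intervals for ratios of reads cover counting error only. No sequences are given, since no file used here holds them.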

Additional observations from a re-analysis of the deposited data

Results flagged for a closer look

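Without the count minimum, 34 low-count gene models with no read in the t1 libraries were called higher at t4. They were marked because they hold reads at t4 and lie under the count minimum, outside the gene models that the comparisons use. For the number of gene models holding 50% of the reads, the t4 minus t1 difference in *L. bicolor* minus that in *P. involutus* was -349.7. It was marked because the exact permutation within species gave p = 0.01. The share of the 10 most abundant gene models was marked for the same reason. It was 1.42 percentage points higher at t4 in *L. bicolor* and -2.24 percentage points different in *P. involutus*, a difference of 3.66 (exact permutation p = 0.005, the smallest that 400 relabellings can give). Both p-values come from relabelling that assumes no change with time in either fungus, so neither tests whether the fungi changed by equal amounts. No outlier was sought, since each group holds 3 libraries.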

How the results depend on the processing

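Of 110 alternative values for the counts of calls, 100 stayed within 1.5 times the value in the report, and of 16 for the read concentration, 15 kept their direction. The settings that moved a count were a test against 2-fold (808 up, 784 down), an rlog difference of at least 1 (408 up, 401 down) and the top 10% by level in place of 20% (239 highly expressed and upregulated). Without the filter on low counts, 34 gene models with no read at t1 rose and 4 with no read at t4 fell, against 0 of each (17 and 4 with DESeq2, added after the data were seen), and leaving out 1 library gave 0 to 2 of the first kind. Without the most abundant gene model, the number holding 50% of the reads was 31.3 higher at t4, and so reversed in direction, and the share of the 10 most abundant was 0.50 percentage points higher at t4 in place of 1.42. Over the libraries left out in turn, the number holding 50% of the reads differed by -12.7 to -6.17. For the most abundant riser, estExt_fgenesh1_kg.C_LG_1_t30236, the authors' factors gave -0.52 and rlog values -0.32, both reversed. The cause was not tested. With 1 library left out, rises at t4 ranged from 4036 to 4214, falls from 4078 to 4208, and the log2 fold change of Lacbi1.fgenesh3_pg.C_scaffold_9000112 from 8.24 to 9.71. With the replicate number as a block, 4431 gene models rose and 4365 fell. Samples with the same number did not deviate together (correlations -0.02, -0.01 and 0.05), but this cannot show whether the numbers pair the libraries. The counts by level class and name group, tried under the same settings after the data were seen, all stayed within 1.5 times. The limits are 3 libraries per group, so that exact tests cannot go below p = 0.1, low counts at t1 or t4, where a fold rests on few reads, and the absence of gene names.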
